A study of Drosophila melanogaster with 48 samples.

Results

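The DNA-binding domain (DBD) of Grainyhead (Grh), expressed without the rest of the protein in Drosophila S2 cells, defined a set of 1306 accessible regions out of the 29997 in its ATAC-seq peak list. ATAC-seq uses a transposase that cuts and tags open DNA, so a peak marks accessible chromatin and not the protein itself. The set, called the Grh DBD set below, holds the regions of the main Grh DBD list that overlapped the Grh DBD titration list by at least 1 bp and overlapped neither of the 2 lists of the Zelda (Zld) DBD. The members were chosen by presence in these 4 lists, so that presence is no finding, and the strength of the regions in these lists is given only as a description. Overlap with the full-length lists, location and nearest genes were not used by the rule.

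Grainyhead is a transcription factor of epithelia, known in the fly for its part in epidermal barrier formation, cuticle repair and neuroblast development. Its DBD recognises the Grh motif as a dimer, and the full-length factor can open closed chromatin, which is why it is called a pioneer factor. Zld activates the early zygotic genome and Twist (Twi) directs mesoderm formation. S2 cells are a cultured line with hemocyte character and serve here as a host in which these factors are expressed from copper-inducible constructs. The design sets the domains beside the whole proteins, which addresses whether a DBD alone gives the accessibility seen with the complete factor.

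S2 cells with the Grh DBD received 20 uM CuSO4 in the main experiment and 80 uM in the titration, and wild-type S2 cells received 20 uM. Cells with the Zld DBD received 100 uM in the main experiment, with wild-type cells at 100 uM, and 400 uM in the titration. The titration of full-length Grh ran over 0, 25, 100 and 400 uM. That of Zld ran over 0, 500, 1000 and 1500 uM, and that of Twi with an HA tag over 0, 10, 40 and 160 uM. The full-length main experiments paired factor and wild-type cells at 100 uM (Grh), 1000 uM (Zld) and 40 uM (Twi). All cells were taken 48 h after induction, in 2 libraries per group. The labels name neither the promoter of the constructs nor whether a line is 1 clone.

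The deposited files are 10 peak lists, and per the labels the main Grh DBD list covers 2 libraries of wild-type cells and 2 of Grh DBD cells together. A region of the set may therefore be open in cells without the domain. The 80 uM libraries carry no list in their labels, and nothing in the labels says from which libraries the DBD titration windows were called. Each list pools libraries, which leaves no replicate values and no test over samples, and depth is unknown. Shares carry exact Clopper-Pearson 95% intervals over regions, which cover counting error only, since regions are not replicates. The cell type could not be checked from nearest genes. The whole Grh DBD list had a region assigned to 18 of 19 hemocyte genes, but also to 21 of 21 septate junction genes and 13 of 13 adherens junction and polarity genes, against 65.9% of all protein-coding genes.

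The strongest group of regions in the set lay inside grh, the gene of the expressed domain (dm6, 2R:17801132-17842820). Of the 9 regions over grh, 6 were strong and 3 weak. The 6 strong regions had deposited fold enrichments between 5.61 and 6.94, were 108 to 147 bp wide and lay within 12472 bp in the part of the gene with the higher coordinates. They took ranks 2 to 7 of the 1306 regions by fold enrichment. The fold enrichment is the authors' own value for a peak over background, and it ranks regions within a list only.

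The strongest of them, at 2R:17830988-17831114, reached 6.94 in the Grh DBD list and 17.6 in its titration list. It was overlapped by regions of the full-length Grh list (2.78) and the Grh titration list (2.45), and by no region of the Zld and Twi lists. The region at 2R:17831665-17831772 had 6.89 in the Grh DBD list, 17.2 in its titration list, 2.70 in the Grh list, 3.83 in the Grh titration list and 1.68 in the Twi list. At 2R:17828409-17828555 the values were 6.10 and 15.8 in the 2 Grh DBD lists and 5.03 and 5.57 in the 2 full-length Grh lists. Each of the 6 strong regions was present in both full-length Grh lists, and none of them in the Zld or HA-Twi titration list.

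The region at 2R:17835745-17835852 (fold enrichment 5.77) was the only strong one that the full-length Zld list also held, with 2.07. The last 2, at 2R:17839309-17839449 (6.09) and 2R:17840745-17840880 (5.61), had 4.59 and 3.08 in the Grh titration list. The long Twi list overlapped 4 of the 6. The 3 weak regions over grh had fold enrichments of 1.79 (2R:17804607-17804662), 1.75 (2R:17808883-17808998) and 2.26 (2R:17840423-17840497), and the last of these was in none of the 6 full-length lists.

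Other strong regions over grh were outside the set. Those at 2R:17828737-17828914, 2R:17839035-17839223 and 2R:17839591-17839788 had fold enrichments of 8.58, 7.96 and 8.0 in the Grh DBD list and were in both full-length Grh lists. Weak regions of the Zld DBD list, with fold enrichments of 2.23, 2.43 and 2.03, overlapped them, which removed them under the rule, and a Zld DBD titration region (2.10) also covered the last of the 3. The strongest region over grh, at 2R:17822211-17822719 (25.7), was present in all 10 lists.

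Some regions of full-length Grh over grh were far wider than those of the domain. The full-length Grh list held a single region of 1253 bp at 2R:17808395-17809647 with a fold enrichment of 4.07, and the Grh titration list a region of 1222 bp there with 6.46. In the Grh DBD list the same stretch held 6 separate regions with fold enrichments of 1.75 to 2.44. A region of 1231 bp at 2R:17806413-17807643 in the Grh titration list (8.05) met no region of the Grh DBD list and 1 window of its titration list (2.19). The main list of full-length Grh had no wide region there either, but 2 narrow ones (1.91 and 2.32) that covered 265 bp. The cells carry introduced sequence of the domain or of the whole factor, and its part in the regions over grh was not tested. Which of these regions cover exons was not determined.

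**Figure D1:**
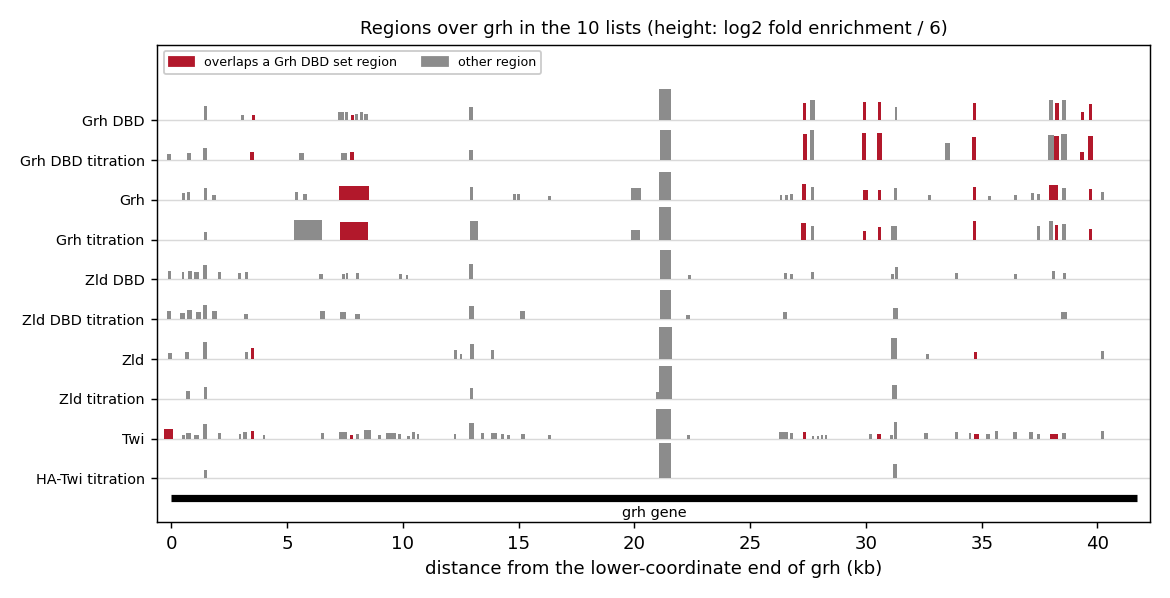
Regions over grh in each of the 10 lists, by distance in kb from the lower-coordinate end of the gene. Bar height is the log2 of the deposited fold enrichment divided by 6, bars narrower than 0.12 kb are drawn at that width, and red bars overlap a region of the Grh DBD set. The 6 strong red regions lie in the upper part of the gene in the Grh DBD lists and both full-length Grh lists, while the 1253 bp region of the Grh list lies near the lower end.

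Outside grh the set held 1297 regions, and most were weak and narrow. The median fold enrichment of the whole set was 2.04 (quartiles 1.82 and 2.29), against 3.20 in the rest of the Grh DBD list (2.15 and 5.95). This median stood at percentile 20.3 of the whole list. The median width was 80.5 bp in the set and 137 bp in the rest of the list, and 943 of the 1306 regions were under 100 bp wide. Outside grh, the deposited −log10 q reached 10 in 56 regions, and it was under 2 in 318 of all 1306, where the authors' list ends at 1.30. The matching Zld DBD set, made by the same rule for the other domain, held 2394 regions with a median fold enrichment of 1.93 in the Zld DBD list.

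Few regions lay near the limits of the rule, and the median overlap with the Grh DBD titration list was 79 bp. The smallest such overlap was 1 bp, and 25 regions of the set overlapped it by under 20 bp. Of the 3050 regions that were in neither Zld DBD list and missed the Grh DBD titration list, 28 lay within 20 bp of it, the nearest at 1 bp. On the other side, 54 regions of the set lay within 20 bp of a Zld DBD region without overlapping it. Of the 22704 regions in both Grh DBD lists that a Zld DBD list also held, 81 did so by under 20 bp. In the whole Grh DBD list, 80.0% of regions were in its titration list and 14.5% in neither Zld DBD list, and of those 4356 regions 30.0% (28.6 to 31.4) were in the titration list.

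**Figure D2:**
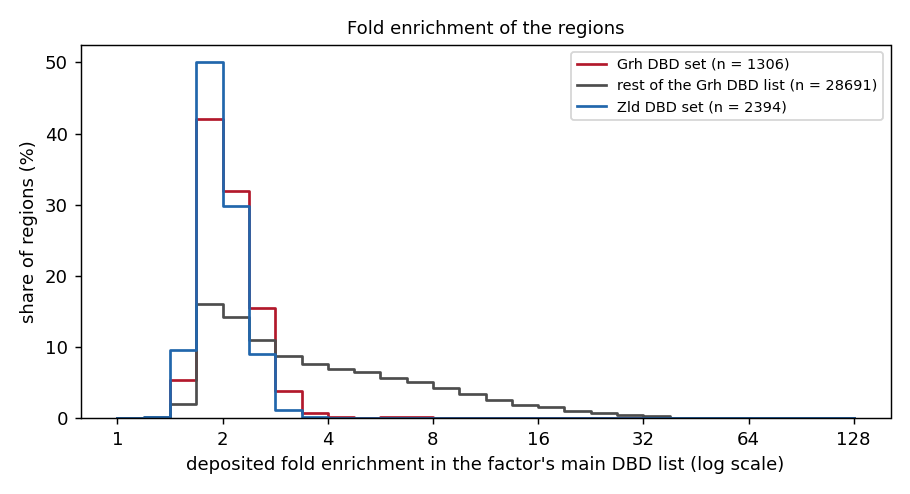
Share of regions (%) by deposited fold enrichment in the main DBD list of the factor, on a log scale, for the Grh DBD set, the rest of the Grh DBD list and the Zld DBD set. Both sets peak near 2, with medians of 2.04 for the Grh DBD set and 1.93 for the Zld DBD set, while the rest of the Grh DBD list (median 3.20) reaches far higher values.

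Single regions outside grh stood out by strength. The strongest of the whole set lay at 2R:3311870-3311929, a region of 60 bp with a fold enrichment of 10.6 that was 51953 bp from the nearest gene end, that of CG41242. It was in the full-length Zld list (15.9) and the Twi list (8.83) and in no Grh list and no titration list of a full-length factor. A region of 64 bp at 3R:267242-267305 (4.01) lay 299800 bp from an end of Myo81F, and one at 2R:1012571-1012655 (3.37) lay 58839 bp from rl, which encodes the ERK kinase of the fly. The full-length lists held these last 2 regions in the Twi list only.

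Several strong regions lay at gene ends. Those nearest to Cnot4, a ubiquitin ligase of the CCR4-NOT complex (2L:10396924-10396998, fold enrichment 4.31), RIC-3 (2R:21017777-21017837, 3.84), Star, written S, which acts in EGF ligand transport (2L:1049546-1049630, 3.75), and the splicing factor U2af50 (X:16356572-16356662, 3.67) were 250, 20, 91 and 70 bp from a gene end. The Cnot4 region was in all 3 full-length titration lists, with 2.99 for Grh, 3.10 for Zld and 4.62 for HA-Twi. The region of S was in the Zld titration list (2.19) and not in those of Grh and HA-Twi. Further regions were nearest to l(1)G0320 (3.78), the cGMP phosphodiesterase gene Pde9 (3.61), CG3558 (3.55), CG43245 (3.49), CG6277 (3.49, inside the neuropeptide receptor gene RYa-R) and chas (3.32). Those of CG43245 and chas lay 10621 and 5226 bp from a gene end. Of the 20 strongest regions outside grh, 8 had a summit within 500 bp of a gene end. That is near the background, which was 37.3% in the whole Grh DBD list. In the rest of that list between a fold enrichment of 3 and 5 it was 45.6%.

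The remaining ones of the 20 strongest outside grh were nearest to sqh, the myosin regulatory light chain (3.36), conu (3.26), the kinesin light chain gene Klc (3.26), CG42514 (3.26), CG31559 (3.20), PGRP-SA, a peptidoglycan receptor upstream of Toll (3.20), and Acox57D-d (3.20, inside Sdc, the syndecan gene). A region inside plum tied with the last of them and is not counted among the 20. Grh titration regions overlapped 9 of these 20, Zld titration regions 9 and HA-Twi titration regions 11. Between a fold enrichment of 3 and 5, the rest of the Grh DBD list stood at 94.1%, 94.3% and 94.2%, a gap that the rule shapes. No region among the 20 was in the Grh titration list alone of the 3. That is near the 0.839% of the rest of the Grh DBD list between 3 and 5. All 6 strong regions over grh were in the Grh titration list alone, against 0.0553% of the rest at 5 and above.

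**Figure D3:**
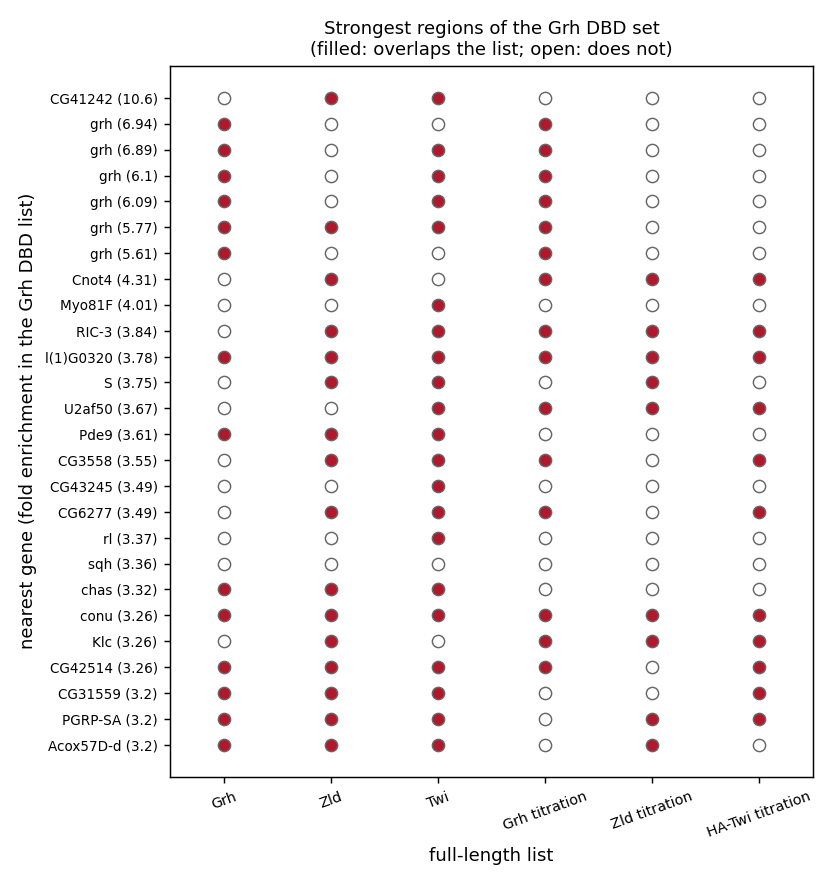
The 6 strong regions over grh and the 20 strongest regions outside it, from top to bottom by fold enrichment in the Grh DBD list (in brackets after the nearest gene). Columns are the 6 full-length lists, filled points mark overlap by at least 1 bp and open points its absence. The rows of grh are filled for both Grh lists and open for the Zld and HA-Twi titration lists, and no other row shows that pattern.

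Between 27.6% and 32.3% of the set was found in each of the 3 full-length titration lists. All 3 shares were below those of the whole Grh DBD list, a gap that the rule itself shapes, since it took out every region that the Zld DBD lists share. The Grh titration list held 394 of the 1306 regions (30.2%, 27.7 to 32.7), against 72.6% of the whole Grh DBD list. The Zld titration list held 422 (32.3%, 29.8 to 34.9), against 73.8%, and the HA-Twi titration list 361 (27.6%, 25.2 to 30.2), against 71.5%. The intervals of the Grh and Zld shares overlapped. The 3050 regions that also missed both Zld DBD lists, but were not in the Grh DBD titration list, gave lower shares than the set. They stood at 15.0% for Grh (13.8 to 16.4), 13.7% for Zld (12.5 to 14.9) and 11.3% for HA-Twi (10.2 to 12.5). The rule asked only the set for presence in the Grh DBD titration list, so this gap is shaped by it as well. Without the regions over grh the shares in the set were 29.8% for Grh, 32.5% for Zld and 27.8% for HA-Twi. Seen from the other side, 393 of the 30394 Grh titration regions (1.29%), 419 of the 27064 Zld titration regions (1.55%) and 361 of the 25397 HA-Twi titration regions (1.42%) overlapped the set.

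No full-length titration list held 713 regions of the set (54.6%), against 20.7% of the whole Grh DBD list. Regions found in all 3 numbered 214 (16.4%), against 66.4%. The Grh titration list alone held 81 regions (6.20%, 4.96 to 7.65), against 2.53% of the whole list. The Zld titration list alone held 95 (7.27%, 5.92 to 8.82), against 3.04%, and that of HA-Twi 47 (3.6%), against 1.38%. All 3 shares were higher than in the whole list, that of Zld as well as that of Grh, but the whole list is stronger. Below a fold enrichment of 2, the Grh titration list alone held 5.16% of the set and 5.21% of the rest of the Grh DBD list. Between 2 and 3 the shares were 6.7% and 4.29%, and between 3 and 5 they were 0% and 0.839%. At 5 and above it held 6 of 7 regions of the set, all over grh, and 0.0553% of the rest. In the Zld DBD set, the Grh titration list alone held 5.01% (4.17 to 5.96) and the Zld titration list alone 5.26%. No titration list held 72.6% of the Zld DBD set. Among the 3050 regions outside both the Zld DBD lists and the Grh DBD titration list, the Grh titration list alone held 5.97% (5.15 to 6.87), close to the 6.20% of the set, and the Zld titration list alone 4.16% (3.48 to 4.93). Of the 81 regions in the Grh titration list alone, 7 lay over grh, where the Zld titration list alone held 0.

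In the full-length main lists, the Grh list held 713 regions (54.6%, 51.8 to 57.3), against 85.9% of the whole Grh DBD list. The Zld list held 597 (45.7%, 43.0 to 48.5), against 81.2%, and the Twi list 1183 (90.6%, 88.9 to 92.1), against 96.4%. These lists differ in length, with 44658 regions for Grh, 33943 for Zld and 71754 for Twi, and the order of the shares follows that of the lengths. Of the set, 272 regions (20.8%) were in the Twi list and in no other full-length list, and 141 (10.8%) were in all 6. The shares were 6.42% and 64.5% in the whole Grh DBD list, and 25.1% and 6.77% in the Zld DBD set.

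**Figure D4:**
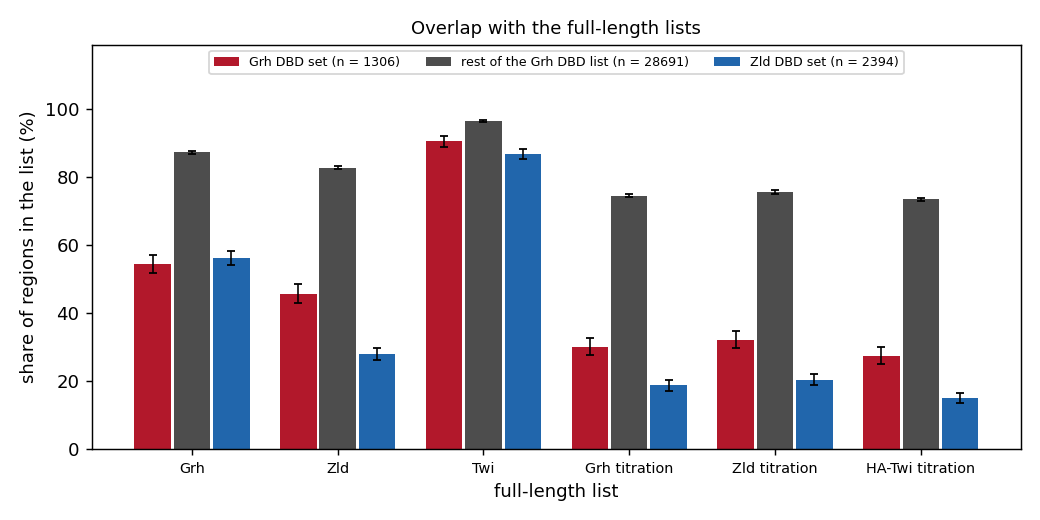
Share of regions (%) that overlap each of the 6 full-length lists by at least 1 bp, for the Grh DBD set, the rest of the Grh DBD list and the Zld DBD set, with exact 95% intervals over regions. The Grh DBD set stands at 30.2%, 32.3% and 27.6% in the titration lists of Grh, Zld and HA-Twi, below the rest of the Grh DBD list at 74.6%, 75.7% and 73.5%.

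Since the set is weak, the same shares were compared within bands of fold enrichment. Below a fold enrichment of 2, the Grh titration list held 25.5% of 620 regions of the set (22.1 to 29.1), against 32.2% of 5224 other regions of the Grh DBD list (31.0 to 33.5). Between 2 and 3 the shares were 33.0% of 642 (29.4 to 36.8) against 59.0% of 8110 (57.9 to 60.1). Between 3 and 5 they were 48.6% of 37 (31.9 to 65.6) against 94.1% of 6318. The Zld titration list gave 28.2%, 35.4% and 54.1% in the set, against 35.1%, 61.1% and 94.3% in the rest. The rest consists mostly of regions that a Zld DBD list also holds, so its higher shares at each strength are shaped by the rule. The 3050 regions in neither Zld DBD list that also missed the Grh DBD titration list had lower shares than the set below 3. Below 2, the set stood at 25.5%, 28.2% and 20.6% in the titration lists of Grh, Zld and HA-Twi. The 3050 regions there gave 12.1% (10.6 to 13.7), 11.1% and 8.43%. Between 2 and 3 the shares were 33.0%, 35.4% and 32.7%, against 19.0% (16.8 to 21.3), 17.0% and 15.1%. The rule asked only the set for presence in that further list, so this gap is shaped by it too. In the 3 bands below 5 the Grh share of the set was not above its Zld share. At 5 and above the order was the reverse, with 6 of 7 regions in the Grh titration list, all over grh, and 0 of 7 in that of Zld. No test was made of these differences.

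**Figure D5:**
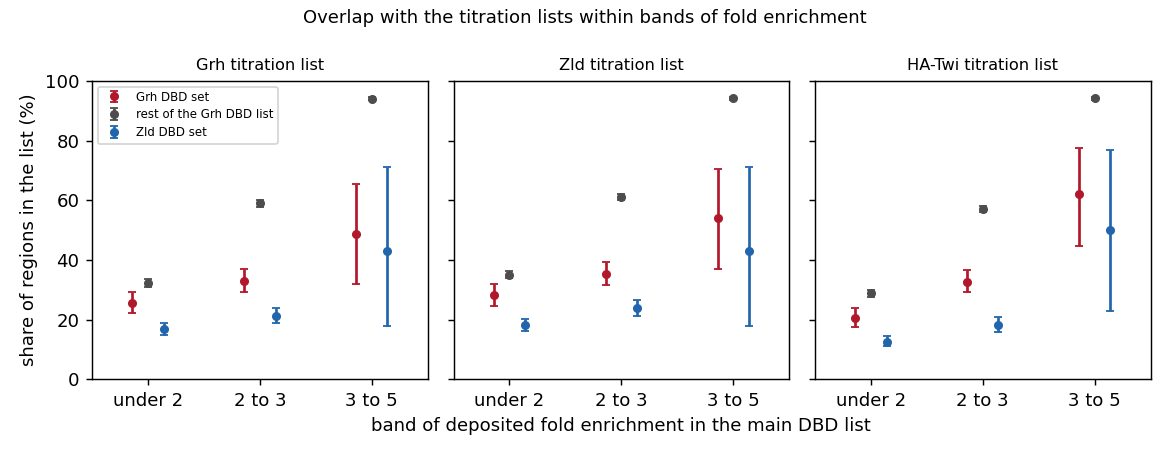
Share of regions (%) in each full-length titration list, within bands of the deposited fold enrichment in the main DBD list, with exact 95% intervals over regions. In each panel the points of the Grh DBD set lie below those of the rest of the Grh DBD list and, below a fold enrichment of 3, above those of the Zld DBD set. Each set is banded by its own list, so the bands of the 2 sets are not matched. In the Grh titration list, the rest of the Zld DBD list (not drawn) stood at 25.0% below 2 and 59.4% between 2 and 3. The rest of the Grh DBD list stood at 32.2% and 59.0%.

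The Zld DBD set gave lower shares in the titration lists, as did the rest of its list. That rest stood at 67.2%, 68.0% and 65.7% in the titration lists of Grh, Zld and HA-Twi. The rest of the Grh DBD list stood at 74.6%, 75.7% and 73.5%. The Grh titration list held 30.2% of the Grh DBD set and 18.8% of the Zld DBD set (17.2 to 20.4). The Zld titration list held 32.3% and 20.5% (18.9 to 22.2). Each set thus stood slightly higher in the Zld titration list than in the Grh titration list, whichever domain it came from, with overlapping intervals in both sets. The rest of each list did so as well. In the main lists, 54.6% of the Grh DBD set and 56.3% of the Zld DBD set (54.3 to 58.3) were in the Grh list, while 45.7% and 28.0% (26.2 to 29.8) were in the Zld list. The Zld DBD list and the Grh list both come from cells at 100 uM copper, against 20 uM for the Grh DBD list and 1000 uM for the Zld list. The part of copper dose in these shares was not tested.

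Regions shared with full-length Grh and with no other factor were rare. The long Twi list held 90.6% of the set and 96.4% of the whole Grh DBD list, which leaves few regions that could count. Only 3 regions of the Grh DBD set were in both full-length Grh lists and in no Zld or Twi list (0.230%). The share was 0.0467% in the whole Grh DBD list, and the Zld DBD set also held 3 such regions (0.125%). Of the 3 in the Grh DBD set, 2 lay over grh. The other, nearest to the antimicrobial peptide gene CecC at 3R:30215597-30215668, lay outside genes, 864 bp from a gene end, with values of 1.93 in the Grh DBD list, 1.80 in its titration list, 2.66 in the Grh list and 5.74 in the Grh titration list. From the other side, 813 full-length Grh regions were in the Grh titration list and in no Zld or Twi list. The set held 3 of these 813 (0.369%), and 1 of the 808 that lay outside grh, against 1.60% of all 44658 full-length Grh regions. The whole Grh DBD list held 10 of the 813 (1.23%). With the Twi lists left aside, 282 regions of the set (21.6%) were in a full-length Grh list and in no full-length Zld list. The share was 8.37% in the whole Grh DBD list and 34.8% in the Zld DBD set. For a Zld list and no Grh list the shares were 10.6% in the set, 2.97% and 5.64%.

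A total of 72 regions (5.51%, 4.34 to 6.89) were in none of the 6 full-length lists. The share was 2.30% in the whole Grh DBD list and 8.27% in the Zld DBD set. The strongest of the 72 was that of sqh at X:6224881-6224936, with a fold enrichment of 3.36 and a −log10 q of 18.6. Next came regions nearest to CG18327 (2.69), the sorting nexin gene Snx3 (2.66), CG42710 (2.63), the calcium-dependent kinase gene CaMKI (2.41), the nuclear pore gene Gp210 (2.40), the histone chaperone gene asf1 (2.39), CG43233 (2.39), CG7991 (2.27) and CG7465 (2.27). None of these 10 was wider than 88 bp.

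In location, the set lay further from gene ends than the whole Grh DBD list, and the Zld DBD set lay further still. Of the 1306 summits, 319 lay at most 500 bp from either end of a protein-coding gene (24.4%, 22.1 to 26.9), against 37.3% of the whole Grh DBD list. Inside a gene lay 1009 summits (77.3%, 74.9 to 79.5), against 67.0%, and 767 (58.7%) were inside a gene and over 500 bp from an end. The median distance to the nearest gene end was 2230 bp in the set and 1110 bp in the rest of the list. In the Zld DBD set, 18.3% of summits lay within 500 bp of a gene end (16.8 to 19.9) and 75.4% inside a gene. Its median distance was 2900 bp. The gene table used has no strand and no exons, so promoters were not separated from 3' ends.

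At matched strength the shares near gene ends were close to those of the rest of the list. Below a fold enrichment of 2, 22.1% of the set (18.9 to 25.6) and 19.3% of the rest (18.3 to 20.4) lay within 500 bp of a gene end. Between 2 and 3 the shares were 25.9% (22.5 to 29.4) and 28.3% (27.4 to 29.3). The X chromosome held 147 regions of the set (11.3%, 9.59 to 13.1), against 14.6% of the whole list, and within the same bands 7.26% and 13.9% of the set against 7.79% and 12.8% of the rest. Between 3 and 5, 13 of 37 regions of the set were on the X (35.1%, 20.2 to 52.5), against 18.4% of the rest (17.4 to 19.3). Below 2, 80.2% of the set lay inside a gene (76.8 to 83.2), against 75.2% of the rest (74.0 to 76.3). The Zld DBD set had 5.35% of its regions on the X (4.48 to 6.32). Chromosome arms 2L, 2R, 3L and 3R held 20.3%, 19.8%, 22.0% and 25.9% of the set, against 19.6%, 19.6%, 20.7% and 24.4% of the whole list.

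The set lay nearest to 1052 protein-coding genes, 7.54% of the 13946 in the table, of which grh is one. Of the other 1051, 876 were nearest to 1 region, 127 to 2, 31 to 3 and 17 to 4 or more. The 17 genes had a median length of 36848 bp, against 5220 bp for all genes nearest to a region of the set and 2161 bp for all protein-coding genes. Among them CG17030 (767 bp), CG32450 (880 bp) and Acsx1L (1844 bp) were short. They also include the transcription factor gene Myc, the paired regulators bab1 and bab2 of limb and abdomen patterning, osa, a subunit of the Brahma chromatin remodeller, and brp, which encodes a protein of the synaptic active zone, with 4 regions each.

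Genes with 5 regions were CG42238, CG17030, CG32450, the dynein heavy chain gene Dnah3, the calnexin gene Cnx99A and the glucose transporter gene Glut1. The share of a gene's Grh DBD regions that belonged to the set was 5 of 55 for Glut1 (9.09%) and 5 of 17 for Dnah3 (29.4%), against 4.35% over all genes. All 4 regions of osa lay inside the gene within 3754 bp, with fold enrichments of 1.65 to 2.29, and none of them was in a full-length titration list. The 4 regions of Myc lay outside the gene, 6240 to 21301 bp from its ends, and all 4 were in the full-length Grh, Zld and Twi main lists and in the Grh and Zld titration lists. At CG13739, 4 of 9 regions belonged to the set, within 4303 bp, and none was in a full-length titration list.

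The others of the 17, with 4 regions each, were Acsx1L (4 of 7 Grh DBD regions), CG31156 (4 of 11), Snoo, a regulator of TGF-beta signalling (4 of 22), CG31145 (4 of 39) and olf413 (4 of 53). The regions of Acsx1L lay within 8233 bp and in part inside GluClalpha, a glutamate-gated chloride channel gene.

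Few regions of the set were assigned to genes of the epidermal barrier, well known targets of Grh, and the counts are too small to read as a lack. Of 21 septate junction genes, 1 was: Nrg, the neuroglian gene, with a region at X:8518044-8518102 of fold enrichment 1.86. Of 13 genes of adherens junctions and polarity and 13 of chitin and the apical matrix, 0 were, although 13 and 8 of them were nearest to some region of the whole Grh DBD list. Of 13 genes of cuticle tanning and wound repair there were 2, namely msn, a kinase upstream of JNK (3L:2563792-2563953, 2.22), and b, which makes beta-alanine for tanning (2L:13822102-13822174, 2.04). The set held 1 of 90 Grh DBD regions of the septate junction list (1.11%) and 2 of 69 of the tanning and wound list (2.90%), against 4.35% of all regions. It held 0 of 73 regions of the adherens junction and polarity list and 0 of 18 of the chitin and apical matrix list. Counted by genes, the septate junction and tanning lists gave 4.76% and 15.4%, below and above the 7.54% of all protein-coding genes. The regions of msn and b were in no full-length titration list, and that of Nrg was in the Grh titration list (3.55).

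Of 15 regulators of neuroblasts and segments, 5 were nearest to the set (33.3%), against 7.54% of all protein-coding genes. The set held 7 of the list's 81 Grh DBD regions (8.64%), against 4.35% of all regions. The POU factor gene nub was nearest to 3 of them, with fold enrichments of 1.80, 2.21 and 2.04, of which the last was in the Grh titration list (4.68) and in no other titration list. The summit at 1.80 lay inside both nub and Ref2, and those at 2.21 and 2.04 lay inside Ref2 and not inside nub. The Hox gene Ubx had a region at 3R:16686701-16686797 (2.73) that was in the Zld titration list (4.42) only among the 3. The gap genes Kr (1.98) and hb (1.92) and the eye and leg regulator dac (2.09) had 1 region each. That of Kr, with its summit inside CG9380, was in all 6 full-length lists, with 9.27 in the Grh titration list, and that of hb was in none. No test was made of this list, and its genes were chosen with earlier results of these data known.

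Of 19 hemocyte genes, the receptor gene Pvr was nearest to 2 regions of the set (1.67 and 2.00), and of 15 copper response genes, MtnE was nearest to 1 at 3R:20534708-20534869 (2.39). The MtnE region, 31 bp from a gene end, was in all 6 full-length lists, with fold enrichments of 9.89 in the Zld list and 2.75 in the Grh list. By genes these shares were 5.26% and 6.67%, against 7.54% of all protein-coding genes, and by regions 2.04% and 5.88%, against 4.35%, which is near the background. Of the grainyhead family, gem was nearest to no region of the Grh DBD list.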

How the data were processed

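The 10 deposited narrowPeak lists of 48 ATAC-seq libraries use dm6. The tools named were Bowtie2, MACS2, featureCounts, DESeq2 and deepTools 3.5.1, per the submitters' processing notes, with settings, read shifting and roles not given in the sources used here. For each peak the authors deposited a score, a fold enrichment over background, a −log10 q and a summit, of which that of the strongest row was used. The deposited DBD titration lists hold windows of 200 bp, for which midpoints stand in for summits.

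Rows of 1 peak number were joined. Overlap was 1 bp. Genes came from the RefSeq table of Release 6, and a summit took the protein-coding gene whose end was closest. The members, the 8 gene lists (111 symbols, all matched, 3 by synonym), the naming rules and the alternatives were chosen with earlier results of these data known. Named were all regions over grh, the 20 strongest outside it, the 10 strongest in both full-length Grh lists alone or in no full-length list (fewer where fewer exist), genes with 4 or more regions and genes of the lists. The comparison with the 3050 other regions in neither Zld DBD list was added after results were seen. Genes over which a region lies, and the neighbouring regions over grh, were added after their values were seen.

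No test over samples was possible and no p-value was computed. Planned motif counts and printed promoters were left out, since no sequence was used here. Overlap and distance functions were tested on 2000 simulated regions and gave 0 differences from direct comparison. Tables were made with pandas 2.3.3 and numpy 2.4.6 under Python 3.11.15, intervals with scipy 1.17.1 and plots with matplotlib 3.10.9.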

Additional observations from a re-analysis of the deposited data

How the results depend on the processing

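The size of the set and its shares depended on where the lists end. With a −log10 q of at least 10 in every list 334 regions met the rule. The titration lists of Grh, Zld and HA-Twi then held 72.2%, 68.0% and 74.6% of them, and 34.7% lay within 500 bp of a gene end. Under that threshold a region also counts as absent from a list that holds it more weakly. With 25397 regions from each list there were 1100 regions, with shares of 26.9%, 38.3% and 38.5%, so that the Grh share was the lowest. With the main Zld DBD list alone as the one that excludes, there were 2022 regions and the shares were 39.4%, 44.3% and 37.7%. Without the demand for the Grh DBD titration list there were 4356 regions, with shares of 19.6%, 19.3% and 16.2%, and 21.1% near gene ends. An overlap of 50% gave 1440 regions and a Grh share of 27.4%. Within 200 and 1000 bp of a gene end lay 8.73% and 35.3%, and with genes of every kind 27.2% lay within 500 bp. Leaving out grh, or leaving the DBD titration windows unjoined (added after the data were seen, the same 1306 regions), moved none of these shares beyond its interval. No paired analysis was possible because no list belongs to 1 library, and leaving out a replicate was not possible for the same reason. The cause of these shifts was not tested. Depth is unknown, so absence from a list shows only that no peak was called there.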

Other observations

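The distance to regions that the Zld DBD lists held varied across the Grh DBD set. The median gap to the nearest Zld DBD region was 354.5 bp, and 493 of the 1306 regions had one within 200 bp. The rule used these lists to exclude regions, and no such gap is given here for other regions. The values are therefore a description only. Of the 6 strong regions over grh, that at 2R:17839309-17839449 lay 70 bp and that at 2R:17830988-17831114 lay 1110 bp from the nearest Zld DBD region. The strongest region of the set, nearest to CG41242, lay 237103 bp from the nearest one.

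The region nearest to PGRP-SA at X:11560261-11560335 stood at 3.20 in the Grh DBD list and was overlapped by regions of 14.6 in the HA-Twi titration list, 11.6 in the Zld titration list and 10.0 in the Grh list. The Twi list (8.41) and the Zld list (4.03) also held it, and the Grh titration list did not. These values rank regions within their own list only. A Zld DBD region lay 79 bp away. The widest region of the set, 442 bp inside gukh, which encodes a partner of the Dlg scaffold at synapses, lay at 3R:18997910-18998351 and was in all 6 full-length lists, with fold enrichments of 3.08, 2.10 and 4.29 in the titration lists of Grh, Zld and HA-Twi.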
